A study of Mus musculus with 30 samples.

Results

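The Hox cluster genes are described here as measured in RNA of cultured muscle from around the mouse eye (extraocular muscle). Every probe set of an Affymetrix A or B array whose platform annotation gave a single symbol of the form Hoxa, Hoxb, Hoxc or Hoxd with a number was taken. This gave 48 probe sets, of which 37 were on A and 11 on B arrays, out of 45265 probe sets on both types. They stood for 33 genes, out of 18194 genes named by a single-symbol probe set and of the 39 mouse Hox genes in the reference gene table. Of these 33, 24 were on the A arrays only, 2 on the B arrays only (Hoxc10 and Hoxd3) and 7 on both. The other Hox genes of that table were not analysed here, and 3 A probe sets that carry several Hox symbols were left out.

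Total RNA was measured at 0, 4, 12, 24 and 48 h, with 3 arrays per time on each type, 30 arrays in all. All groups are mouse extraocular muscle under cell culture and differ only in the time. The labels give no strain, genotype, age, sex or agent, do not say what started the clock, and do not say if the 3 arrays of a time stand for separate cultures or if a B array took the RNA of an A array. The p-values therefore set a difference between times only against the spread of arrays within the times, and that spread may be technical. Replicate 1 of the B arrays at 0 h is titled extraocular muscle, yet its source name is leg muscle. It was kept under its title, and the changes called on the B arrays in Hoxd13, Pbx3 and Kdm6b are also given without it.

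Hox genes encode homeodomain transcription factors and lie in 4 clusters, A to D, in which the order of the genes along the chromosome follows the order of their expression along the body from head to tail. Genes of the same number in different clusters are paralogs. Low-numbered genes pattern the hindbrain and neck, middle ones the trunk, and high-numbered genes the lumbar to tail region and, in the A and D clusters, the limb, where the group 13 genes act in the hand and foot. The eye muscles arise from head mesoderm in front of the Hox-expressing part of the body, whereas limb muscle arises from somites within it.

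On the A arrays most Hox probe sets were at the level of probe sets for genes a mouse does not have. The A array values of the 37 probe sets ran from 0.8 to 344.2 intensity units. Each array had been scaled to a common trimmed mean of about 500.2 units (A) or 500.1 (B), so every value is relative to its array. Of the 37, 3 had a mean over the 15 arrays at or above the level filter, an intensity of 101 set at the 40th percentile of all probe sets. The other 34 (91.9%) lay below it, against 40% of all probe sets by construction. A second yardstick came from 27 control probe sets for the Bacillus genes dap, lys, phe, thr and trp. Their means reached from 2.83 to 47.1 units on the A arrays, so that this level was looser than the filter there. It is not given in the sources used here whether any of them was added to the samples. Of the 37 Hox probe sets, 27 (73.0%) had means below the highest of these controls, as had 25.8% of all A probe sets. In 17 no array exceeded the highest control of that array, and 1 of the Hoxc6 probe sets exceeded it on all 15. The median of the 37 means was 24.5 units, and their median rank was at the 16.1 percentile.

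The B arrays had a higher background, and the Hox probe sets sat nearer the middle. The 27 controls had means of 11.1 to 275.7 units there, 2 of them above the B level filter of 199.6 units, and 48.9% of all B probe sets had means below the highest control. Of the 11 Hox probe sets, 8 passed the filter and 3 did not (27.3%). Against the highest control mean, 5 were above and 6 below (54.5%). The values ran from 31.4 to 1737 units, and the median of the 11 means was 263, at the 47.7 percentile. The probe sets that passed were those of Hoxa3 (2 probe sets), Hoxa5, Hoxa10, Hoxb3, Hoxd3, Hoxd13 and 1 of the 2 of Hoxc5. Those below were the other Hoxc5 probe set, Hoxc10 and Hoxd8.

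**Figure D1:**
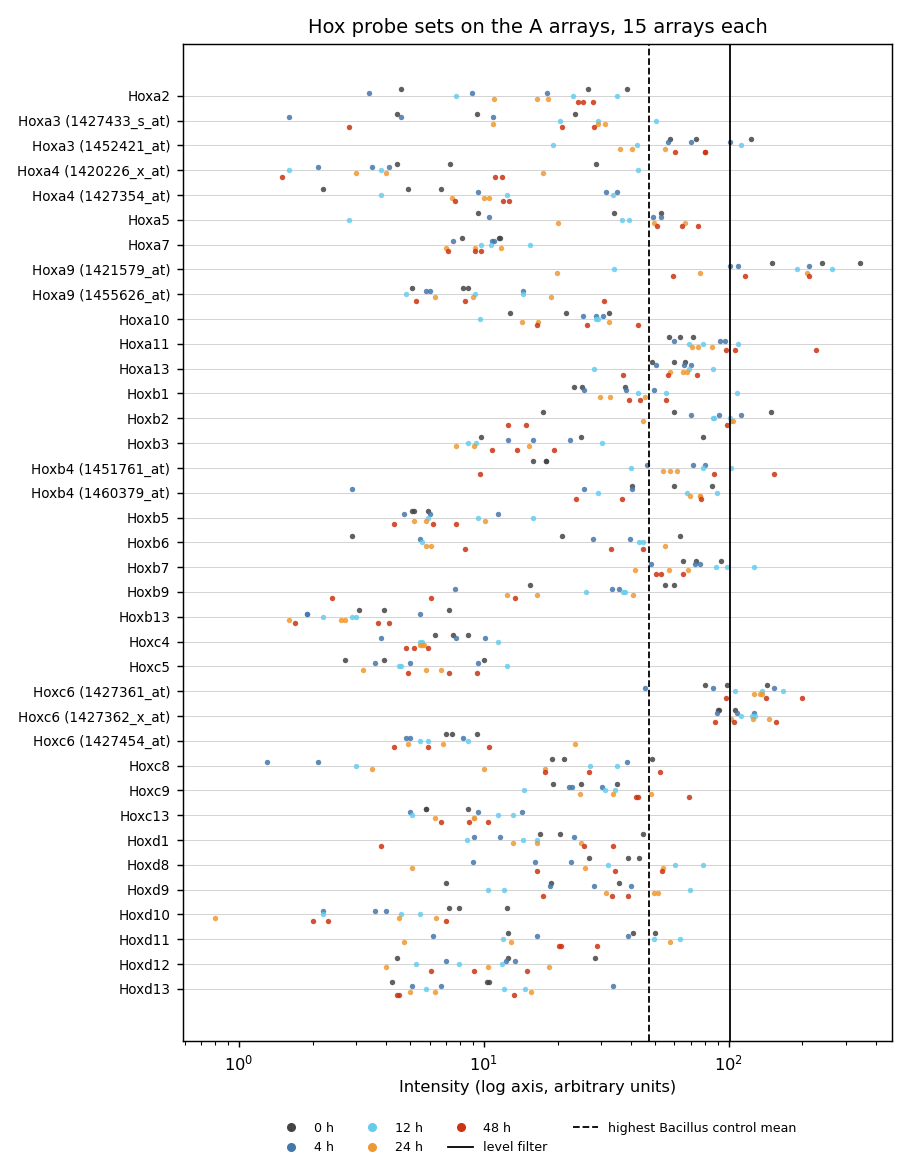
Intensity of each of the 37 Hox probe sets of the A arrays on a log axis, 1 point per array coloured by time, with the level filter (101 units, solid line) and the highest mean of the 27 Bacillus control probe sets (47.1 units, dashed line). Most rows lie to the left of both lines, and the Hoxa9 probe set and the Hoxc6 pair that passed reach across the solid line.

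**Figure D2:**
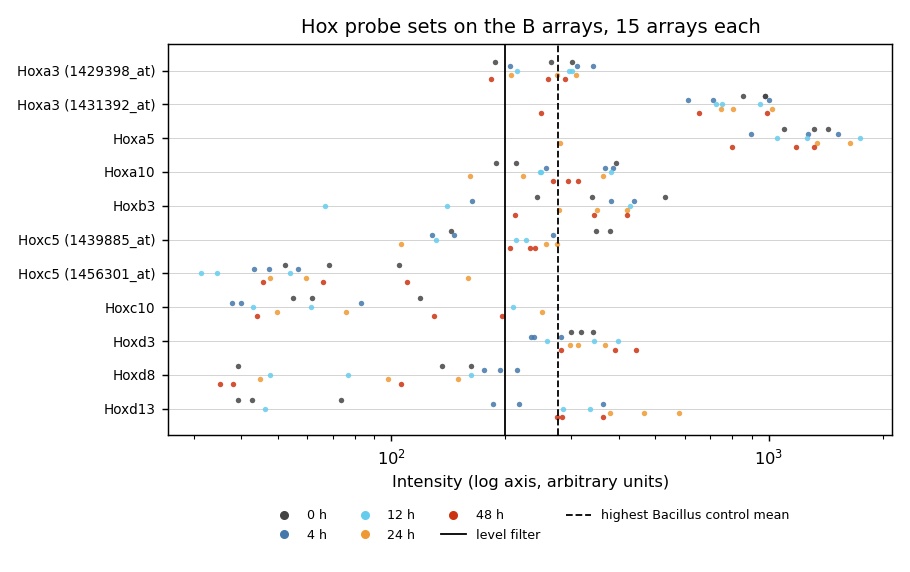
Intensity of each of the 11 Hox probe sets of the B arrays on a log axis, 1 point per array coloured by time, with the level filter (199.6 units, solid line) and the highest Bacillus control mean (275.7 units, dashed line). Hoxa5 and one Hoxa3 probe set lie well to the right of both lines except for single arrays, and the Hoxd13 points at 0 h lie to the left of both.

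Among genes of groups 1 to 4, the hindbrain and neck genes, none of 12 A probe sets passed the filter and 4 had means above the highest control. Those 4 were Hoxb2 (12.5 to 148.5 units over the 15 arrays), 1 of the Hoxa3 pair (1452421_at, 19.1 to 123.6) and both Hoxb4 probe sets (9.6 to 152.8 and 2.9 to 89.3). The rest were dim. Hoxb1 ran from 23.3 to 107.9, Hoxb3 from 7.7 to 78.8, Hoxa2 from 3.4 to 38.4, Hoxd1 from 3.8 to 44.6 and Hoxc4 from 3.8 to 11.4. The other Hoxa3 probe set ran from 1.6 to 50.4, and the Hoxa4 pair from 1.5 to 42.6 and from 2.2 to 35.0. All 4 B probe sets of these groups passed the filter. The brighter Hoxa3 probe set (1431392_at) ran from 248.7 to 1022 units and was the only B member above the highest control of its own array on all 15 arrays. The other Hoxa3 probe set (1429398_at) ran from 183.4 to 342.0, Hoxb3 from 66.6 to 531.2 and Hoxd3 from 234.2 to 445.4.

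Of groups 5 to 8, the trunk genes, 2 of 11 A probe sets passed, both for Hoxc6. They ran from 45.5 to 199 units (1427361_at) and from 87.8 to 155.4 units (1427362_x_at), while the other Hoxc6 probe set (1427454_at) ran from 4.3 to 23.5 units. The suffix x_at marks a probe set some of whose probes can match other transcripts, so the level of that probe set may not be that of Hoxc6 alone. Hoxb7 lay below the filter on 14 of the 15 arrays, at 41.3 to 126.2 units. Hoxa5 ran from 2.8 to 75.2, Hoxb6 from 2.9 to 63.1, Hoxc8 from 1.3 to 52.6 and Hoxd8 from 5.1 to 78.7. Hoxa7 (7.0 to 15.4), Hoxb5 (4.3 to 15.9) and Hoxc5 (2.7 to 12.4) stayed below the highest control mean on every array. On the B arrays, Hoxa5 (1443803_x_at) ran from 279.9 to 1737 units and exceeded the highest control on 14 of 15 arrays. Hoxa5 thus had a probe set with a mean of 1210 units on the B arrays and another with a mean of 40.9 on the A arrays, below the highest control mean there. The Hoxc5 pair on the B arrays ran from 106.2 to 379.3 and from 31.4 to 159.3, and Hoxd8 from 35.1 to 215.6.

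Of groups 9 to 13, the lumbar, tail and limb genes, 1 of 14 A probe sets passed, that of Hoxa9 (1421579_at, 19.8 to 344.2 units). The second Hoxa9 probe set (1455626_at) ran from 4.8 to 30.8 units. Hoxa11, which acts in the forearm and lower leg, had a mean of 90.5 units just below the filter of 101, with 57.0 to 227.7 over the arrays. Hoxa13, which acts in the hand and foot, ran from 28.2 to 86.3 units and reached the filter on no array. Hoxa10 ran from 9.6 to 42.5, Hoxb9 from 2.4 to 60 and Hoxc9 from 14.6 to 68.6. Hoxb13 (1.6 to 7.2) and Hoxc13 (5.0 to 14.3) also stayed below it throughout. The D cluster members were all dim on the A arrays. They ran from 7.0 to 69.4 in Hoxd9, 0.8 to 12.4 in Hoxd10, 4.7 to 63.3 in Hoxd11, 4.0 to 28.4 in Hoxd12 and 4.2 to 33.8 in Hoxd13. None of the 7 A probe sets of the D cluster had a mean above the highest control, against 4 of 12 in the A, 4 of 10 in the B and 2 of 8 in the C cluster. On the B arrays, Hoxa10 ran from 161.5 to 393.2, Hoxc10 from 37.8 to 251 and Hoxd13 from 39.3 to 579.2 units.

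Over the 5 times a single Hox probe set passed the test in a single comparison. This was Hoxd13 on the B arrays at 24 h against 0 h. The test was a limma model of log2(intensity + 16) fitted to all probe sets above the filter, with p-values adjusted over all of them within a comparison at 0.05. Of the 8 B members tested, 1 was called higher at 24 h and none lower, where 0.97% of all B probe sets tested were called and 0.696% were called higher. None of the 8 was called at 4 h (background 0%), 12 h (0.074%) or 48 h (0.933%) against 0 h. None was called at 12 h against 4 h (0.0074%), 24 h against 12 h (0%) or 48 h against 24 h (0.0666%), and none in the F-test for any change (1.02%). On the A arrays none of the 3 members tested was called in the 4 comparisons with 0 h, where 0.0295%, 0.368%, 5.56% and 6.7% of all probe sets were called at 4, 12, 24 and 48 h. Nor was any called at 12 h against 4 h (0.295%), 24 h against 12 h (0.0884%), 48 h against 24 h (0.626%) or in the F-test (7.59%).

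With no level filter, so that all 48 members entered, Hoxd13 at 24 h was again the only Hox call against 0 h (limma adjusted p = 0.0293). In those fits 0%, 0.0178%, 0.386% and 0.462% of all B probe sets were called at 4, 12, 24 and 48 h, and 0%, 0.0265%, 2.43% and 3.36% of all A probe sets. At an unadjusted limma p under 0.05, 4, 3, 3 and 4 of the 37 A members passed at 4, 12, 24 and 48 h against 0 h, where 5.43%, 10.1%, 14.2% and 14.9% of all A probe sets did. Of the 11 B members 1, 1, 1 and 2 passed, where 5.42%, 7.24%, 8.71% and 8.71% of all B probe sets did. The 3 values of a later time lay entirely apart from those of 0 h in 5, 6, 7 and 7 A members, against 10.7%, 12.8%, 19.1% and 19.3% of all A probe sets, with both directions represented at each time. In the B members this was so for 3, 0, 1 and 1, against 9.83%, 11.8%, 12.4% and 12.6% of all. The median log2 change of the 37 A members was -0.04, 0.08, -0.01 and -0.07 at the 4 times, beside 0.00, 0.02, -0.02 and 0.03 over all A probe sets. That of the 11 B members was -0.21, 0.04, -0.03 and -0.04, beside -0.01, -0.01, -0.03 and -0.02. Positive differences were found in 15, 19, 18 and 18 of the 37 A members and in 4, 6, 5 and 4 of the 11 B members.

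Hoxd13, a gene of the 5′ end of the D cluster known for its role in the digits, was low at 0 h and higher at 24 h on the B arrays. The 3 arrays of 0 h read 73.5, 39.3 and 42.7 units. Those of 4 h read 217.4, 362.5 and 185.8, and those of 12 h read 336, 46.3 and 284.8. Those of 24 h read 380.4, 579.2 and 465.5, and those of 48 h read 283.5, 273.9 and 364.1. The groups of 4, 24 and 48 h did not overlap that of 0 h, and that of 12 h did through its replicate 2 alone. The mean rose from 51.8 ± 18.8 (SD, n = 3) at 0 h to 475 ± 99.7 (SD, n = 3) at 24 h, a fitted log2 change of 2.87 ± 0.54 (SE, limma adjusted p = 0.0192). The differences from 0 h were 1.98 at 4 h (limma adjusted p = 0.833), 1.50 at 12 h (0.465) and 2.28 at 48 h (0.0635), each with an SE of 0.54. The F-test over the 5 times missed the threshold (limma adjusted p = 0.0767). In RNA from a mixed culture, more cells that express a gene and more of its RNA per cell cannot be told apart.

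The low side of the Hoxd13 change was at background. All 3 values of 0 h were below the highest Bacillus control of their arrays, which was 334.4 to 368.8 units at that time, and the median control mean was 51.5 units. The fitted change is therefore no measure of its size. With each 0 h array set at its highest control, the level at 24 h was 1.34-fold higher as a ratio of geometric means. Without 0 h replicate 1 this bound was 1.32-fold. It was chosen after seeing the data and carries no error. At 4, 12 and 48 h no bound above 1 could be given. At 4, 12, 24 and 48 h, 1, 1, 3 and 2 of the 3 arrays exceeded the highest control. The probe set entered the test through its later times, since its mean over all 15 arrays was 262 units while its mean at 0 h was below the filter. Without the 0 h array whose source name is leg muscle, which held the highest Hoxd13 value of its time, the change was 3.09 ± 0.60 (limma adjusted p = 0.0447). The call was lost on leaving out 0 h replicate 2 (adjusted p = 0.0537), 0 h replicate 3 (0.0569) or 24 h replicate 1 (0.0540), 2 (0.102) or 3 (0.0528), with changes of 2.72 to 3.01, and in a fit to the arrays of 0 and 24 h alone (0.0531). Leaving out 12 h replicate 2, the lowest array of its time, brought the 48 h difference past the threshold (limma adjusted p = 0.00499).

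The second Hoxd13 probe set, on the A arrays, did not follow. Its means were 8.33 ± 3.58, 15.2 ± 16.1, 10.9 ± 4.58, 8.93 ± 5.72 and 7.40 ± 5.11 units (SD, n = 3) at the 5 times. No array of that type exceeded its highest control in this probe set, and the log2 differences from 0 h were 0.02 at 24 h and -0.07 at 48 h. It lay in the range of the A controls at every time, so that the 24 h call rests on 1 of the 2 probe sets of the gene.

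**Figure D3:**
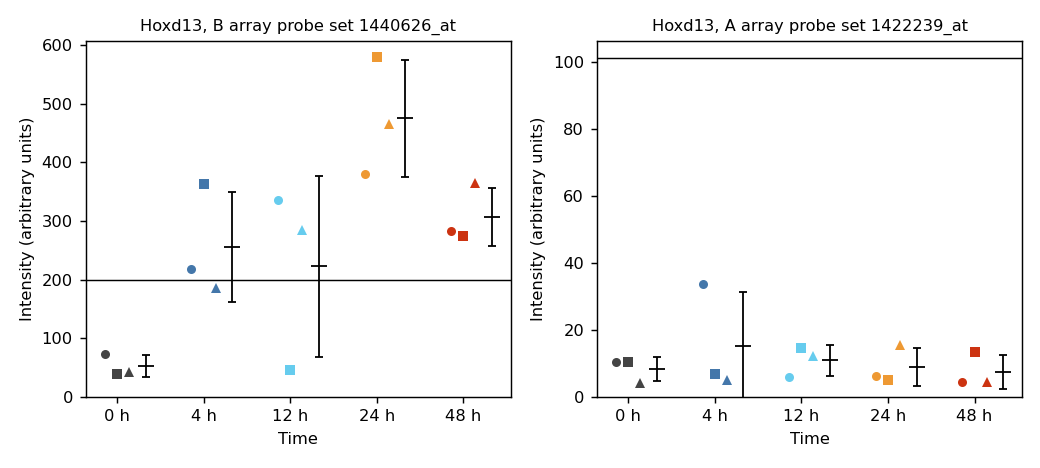
Intensity of the 2 Hoxd13 probe sets at each time, with circles, squares and triangles for replicates 1, 2 and 3, a bar with whiskers for the mean ± SD (n = 3, the lower whisker stopping at the axis), and a horizontal line at the level filter of each array type. On the B arrays 0 h lies at 39.3 to 73.5 units and 24 h at 380.4 to 579.2, while all A array values lie at 33.8 or below.

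The promoter of Hoxd13 is shown because this was the member called, with that of Hoxa13, its paralog in the A cluster, for comparison. Both sequences are from RefSeq on build GRCm38.p6 and run 5′ to 3′ over the 250 bases before the annotated start, at chr2:74667975-74668224 on the plus strand for Hoxd13 and chr6:52260881-52261130 on the minus strand for Hoxa13. Capitals mark matches, on either strand, to CANNTG, the general pattern of an E-box, and to TATAAA, the letters of a TATA box.
Hoxd13: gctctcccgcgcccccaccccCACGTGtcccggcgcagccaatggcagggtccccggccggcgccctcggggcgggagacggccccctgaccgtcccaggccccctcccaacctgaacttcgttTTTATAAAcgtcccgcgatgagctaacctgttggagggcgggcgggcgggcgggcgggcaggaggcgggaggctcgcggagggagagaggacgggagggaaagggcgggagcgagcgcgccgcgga
Hoxa13: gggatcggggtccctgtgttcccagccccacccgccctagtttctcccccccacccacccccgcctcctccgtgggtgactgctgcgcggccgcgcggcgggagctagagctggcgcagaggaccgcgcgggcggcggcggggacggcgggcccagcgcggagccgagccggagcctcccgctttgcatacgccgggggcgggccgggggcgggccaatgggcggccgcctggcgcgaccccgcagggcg

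Hoxd13 held 1 CANNTG match (CACGTG) and a pair of overlapping TATAAA matches, 1 on each strand. The TATAAA pair lay near the middle of the 250 bases and not next to the annotated start. Hoxa13 held neither. Of the 24 Hox promoters in the table, 70.8% held CANNTG and 16.7% held TATAAA, against 66.2% and 12.4% of all 32851 promoters of that length. Both promoters were rich in CG, with 31 CG pairs in Hoxd13, more than in 94.8% of all promoters, and 35 in Hoxa13, more than in 97.0%. The median was 12.5 over the Hox promoters and 6 over all promoters. These matches describe the letters only, and no binding was measured here.

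**Figure D4:**
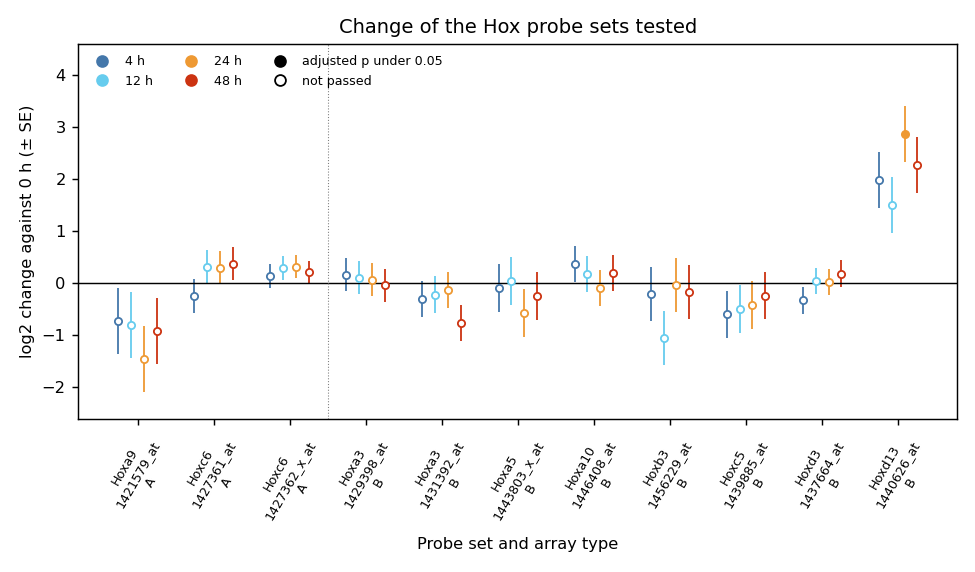
The log2 change from 0 h at 4, 12, 24 and 48 h for the 11 Hox probe sets above the level filter (3 on the A arrays, left of the dotted line, and 8 on the B arrays), with whiskers of 1 SE from the limma fit. Filled points pass an adjusted p of 0.05, which holds for Hoxd13 at 24 h (2.87 ± 0.54) and for no other point.

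The other 10 members above the filter did not pass in any comparison. Hoxa9, a gene of the lumbar region, read 344.2, 239.6 and 149.7 units at 0 h and 208.6, 19.8 and 76.4 at 24 h on the A arrays. Its arrays were spread over more than the difference between times. The means were 244 ± 97.3 at 0 h, 141 ± 62.2 at 4 h, 162 ± 117.0 at 12 h, 102 ± 96.9 at 24 h and 129 ± 77.3 at 48 h (SD, n = 3). The log2 difference at 24 h was -1.45 ± 0.63 (limma adjusted p = 0.211).

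The Hoxc6 pair on the A arrays moved little. The x_at probe set, 1427362_x_at, had means of 95.9 ± 8.65, 108 ± 18.2, 121 ± 8.40, 125 ± 22.1 and 116 ± 35.1 units (SD, n = 3) at the 5 times. Its difference at 48 h was 0.21 on the log2 scale, with an interval at the 95% level from -0.26 to 0.68. The other probe set, 1427361_at, had means of 107 ± 32.8, 95.0 ± 54.6, 136 ± 30.4, 133 ± 5.20 and 146 ± 50.9, and a 48 h difference of 0.38 with an interval from -0.30 to 1.06. At 12 h the x_at probe set was above 0 h without overlap (111.8 to 127.4 against 90.4 to 105.9 units), at a limma adjusted p of 0.626.

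The Hoxa3 probe set 1431392_at of the B arrays had means of 933 ± 70.5, 773 ± 202, 806 ± 122, 858 ± 145 and 629 ± 370 units (SD, n = 3) at the 5 times. Its wide spread at 48 h came from replicate 3 at 248.7, beside 653.1 and 986.6, and its 48 h difference was -0.75 ± 0.35 (limma adjusted p = 0.472). The other Hoxa3 probe set, 1429398_at, stayed between 244 ± 54.2 and 286 ± 70.9. Hoxa5, which patterns the neck and upper trunk, had means of 1284 ± 173, 1229 ± 315, 1351 ± 351, 1085 ± 712 and 1100 ± 268 units. Its spread at 24 h came from replicate 1, at 279.9 beside 1634 and 1341, and its 24 h difference was -0.57 ± 0.46 (limma adjusted p = 0.764).

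Hoxd3, at the 3′ end of the D cluster, had B means of 320 ± 21.3, 252 ± 26.2, 334 ± 70.7, 326 ± 37.9 and 373 ± 83.6 units (SD, n = 3). At 4 h its arrays (234.2 to 282) lay below those of 0 h (299 to 341.5), with a log2 difference of -0.33 ± 0.25 (limma adjusted p = 0.996). Its 24 h difference was 0.02, with an interval from -0.51 to 0.56 on the log2 scale. Hoxb3 had means of 371 ± 147, 329 ± 146, 212 ± 191, 350 ± 70.7 and 326 ± 105. Hoxa10 had means of 265 ± 111, 338 ± 70.2, 293 ± 77.1, 249 ± 103 and 291 ± 22.7. Hoxc5 (1439885_at) had means of 291 ± 128, 181 ± 76.4, 191 ± 52.3, 213 ± 92.7 and 226 ± 18.0. None of these 3 passed at any time against 0 h, with limma adjusted p-values of 0.637 or more.

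Some dim A members, below the filter, stood apart from 0 h at an unadjusted p only. Hoxb4 (1451761_at) read 17.9, 17.9 and 15.9 units at 0 h, against 46.5 to 79.8 at 4 h, 40 to 102.6 at 12 h and 54.1 to 61.3 at 24 h, and it spread from 9.6 to 152.8 at 48 h. The other Hoxb4 probe set (1460379_at) read 59.8, 85.5 and 40.3 at 0 h and 2.9, 40.3 and 25.7 at 4 h, the opposite direction. Hoxb9 read 54.8, 60 and 15.4 at 0 h and 2.4, 13.4 and 6.1 at 48 h, and Hoxc9 read 24.9, 35.0 and 19.2 against 68.6, 42.5 and 41.9. Hoxa11 read 63.4, 71.3 and 57.0 at 0 h and 97.7, 227.7 and 105.6 at 48 h. With no filter, the smallest limma adjusted p among A members was 0.0868, that of Hoxb9 at 48 h. On the same arrays the highest control read 23.2 to 54.5 units at 0 h and 62.5 to 84.8 at 48 h.

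For the 7 genes with probe sets on both types, every probe set of the gene had the same sign against 0 h in 4 at 24 h and in 3 at 48 h. These included Hoxa10 (A -0.05, B -0.09 at 24 h), Hoxb3 (A -0.81, B -0.03) and Hoxd8 (A -0.39, B -0.13), none of them called. The remaining gene at 24 h was Hoxd13 (A 0.02, B 2.87), whose A difference was near 0. Hoxa5 differed, with 24 h differences of 0.38 (A) and -0.57 (B). Hoxa3 and Hoxc5 had probe sets of both signs at 24 h and at 48 h. The A probe sets of Hoxa5, Hoxa10, Hoxb3, Hoxd8 and Hoxd13 all had means below the highest control mean.

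The arrays of one time were not alike across the family. On the A arrays, replicate 2 of 0 h was the highest of its 3 in 26 of the 37 members and the lowest in none, while it was the highest in 44.4% of all A probe sets. Replicate 2 was also the highest in 22 of 37 at 12 h and at 48 h, against 47.1% and 41.3% of all. At 4 h it was the highest in 16 (37.7% of all). At 24 h it was the highest in 11 and the lowest in 19, while replicate 3 was the highest in 18 (45.9% of all). Among the B arrays, the 0 h array with leg muscle as its source name was the highest of its 3 in 6 of 11 members and the lowest in 4, against 33.5% and 29.4% of all B probe sets. In that array the median member was 0.65 higher on the log2 scale than the mean of the other 2 arrays, against 0.03 over all probe sets. Its Hoxa10 value was 393.2 against 189.4 and 213.6, and its Hoxc10 value was 119.5 against 61.5 and 54.9. Its Hoxd13 value was 73.5 against 39.3 and 42.7, all below the highest control. The other members highest in it were of lower number. They were Hoxb3 (531.2 against 339.2 and 243.5) and both Hoxc5 probe sets (379.3 against 143.8 and 349.3, and 104.8 against 68.5 and 52.4). The members lowest in it were both Hoxa3 probe sets, Hoxa5 and Hoxd3. The part of the source tissue in these values was not tested.

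Of the TALE homeodomain proteins, which bind DNA together with Hox proteins, 9 of 11 genes were above the filter on at least 1 type and 2 changed over time by the F-test. For this and the following lists the background is that of all probe sets in the F-test, 7.59% (A) and 1.02% (B), while the lists are counted in genes. Pbx3, a Pbx partner of Hox proteins, read 432.9, 519.7 and 418.8 units at 0 h and 665.4, 765.7 and 734.6 at 48 h on the A arrays. These groups did not overlap, and the rise was 0.64 ± 0.15 on the log2 scale (limma adjusted p = 0.0119). On the B arrays Pbx3 read 985.8, 1006 and 1399 at 0 h and 1939, 1796 and 1972 at 48 h, a rise of 0.76 ± 0.16 (limma adjusted p = 0.0284). Without the 0 h array whose source name is leg muscle the B difference was 0.67 ± 0.17 and missed the threshold (limma adjusted p = 0.139). The calls over all B probe sets at 48 h went from 126 to 74 in that fit. Tgif1, a TALE repressor, changed by the F-test (limma adjusted p = 0.0226), with 999 ± 74.9 units at 0 h, 885 ± 58.2 at 24 h and 1291 ± 161 at 48 h (SD, n = 3), and passed in no comparison with 0 h.

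Of the Polycomb and Trithorax group genes, whose products write, read and erase the histone marks that keep Hox clusters silent or active, 26 of 27 were above the filter and 1 changed by the F-test. This was Kdm6b, the gene of a demethylase that removes the repressive H3K27 methylation. Kdm6b (1456610_at, B arrays) read 1517, 1806 and 1716 units at 0 h and 2869, 2812 and 2919 at 24 h. It read 4244, 3321 and 3786 at 48 h, so that neither later group overlapped that of 0 h. The rise was 0.77 ± 0.15 at 24 h (limma adjusted p = 0.0208) and 1.16 ± 0.15 at 48 h (0.000551). Without the 0 h array whose source name is leg muscle, the 24 h call was lost (0.70 ± 0.16, limma adjusted p = 0.0960). That of 48 h was kept (1.09 ± 0.16, 0.00524). In that fit, with 1 array fewer at 0 h, the calls over all B probe sets went from 131 to 47 at 24 h and from 126 to 74 at 48 h. The other Kdm6b probe set tested, 1442643_at, was not called (0.67 ± 0.40 at 24 h, limma adjusted p = 0.633). Ezh2, the gene of the methyltransferase that writes that mark, read 1073, 1474 and 1384 at 0 h and 653.3, 860.5 and 971.1 at 24 h. It fell by 0.66 ± 0.18 on the log2 scale (limma adjusted p = 0.0405), and its 48 h difference was -0.60 (0.0552). No histone mark was measured here.

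**Figure D5:**
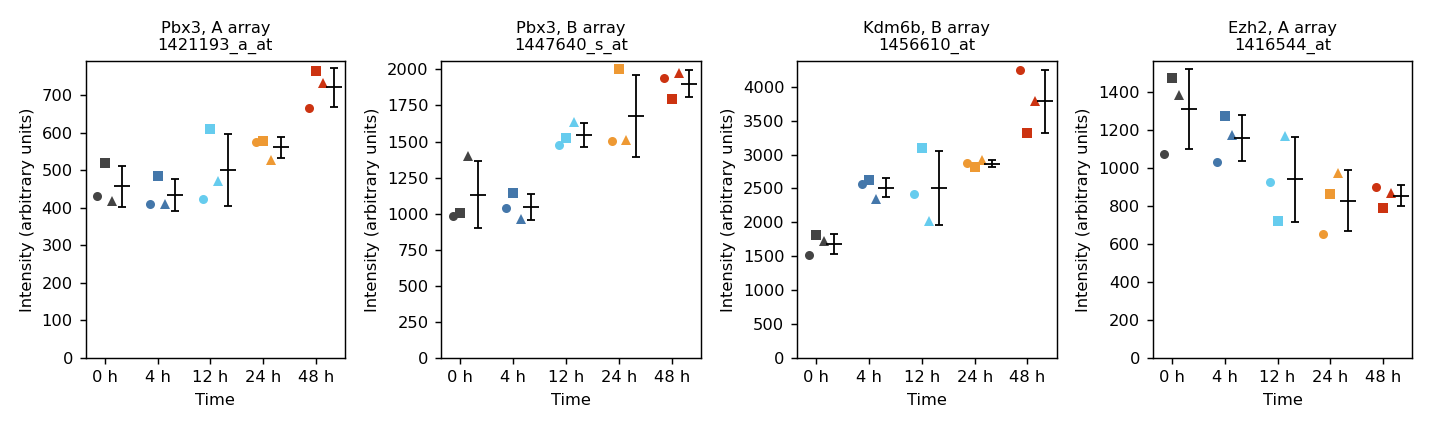
Intensity of Pbx3 on both array types, Kdm6b and Ezh2 at each time, with circles, squares and triangles for replicates 1, 2 and 3 and a bar with whiskers for the mean ± SD (n = 3). Pbx3 and Kdm6b lie higher at 48 h than at 0 h without overlap, and Ezh2 lies lower at 24 h (653.3 to 971.1 units) than at 0 h (1073 to 1474).

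Retinoic acid sets Hox expression in the embryo through its receptors. Of the 17 genes of retinoid synthesis, breakdown, binding and reception, 16 had a probe set, 6 were above the filter and none of these 6 changed by the F-test or in any comparison. The smallest F-test p-values were those of the receptor genes Rarg (limma adjusted p = 0.151) and Rxra (0.320). Below the filter, and chosen after their values were seen, were the binding protein genes Crabp1 and Crabp2. Crabp1 (1448326_a_at) had A means of 3.83 ± 1.25 units at 0 h and 89.8 ± 3.22 at 48 h, and Crabp2 (1451191_at) had 19.5 ± 3.06 and 253 ± 102 (SD, n = 3). Both passed the F-test in a fit with no filter (limma adjusted p = 3.51e-05 and 0.00848). Of the 19 Cdx, ParaHox and Hox-cluster neighbour genes, 16 had a probe set, 8 were above the filter and none of these changed. The smallest there were those of Snx10 (limma adjusted p = 0.108), a neighbour of the A cluster, and Cbx5 (0.144), a neighbour of the C cluster. Evx2, named for its place next to Hoxd13 and not for its values, had A means of 105 ± 14.7 units at 0 h, 107 ± 30.8 at 24 h and 167 ± 83.3 at 48 h, with an F-test p of 0.388 after adjustment.

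The tissue label was set against its markers. Of 11 myoblast and myotube markers, 9 were above the filter, with a summed A level of 47582 to 61371 units per array at 0 h. Tnnt3 was higher at 24 and 48 h, Myh3 was higher at 24 h and Myod1 was lower at 48 h. Of 9 markers of extraocular and head muscle, 7 had a probe set and 3 were above the filter (Isl1, Pitx1 and, on the B arrays, Tcf21). Tbx1, Alx4, Msc and Lhx2 were below it, and none of the 3 changed. The A probe set of Tcf21 (1417447_at) read 6.6 to 78.9 units, below the filter on every array. Whether Isl1 and Pitx1 set head muscle apart from limb muscle was not tested. Of 12 markers of limb and trunk muscle or limb mesenchyme, 5 were above the filter (Tbx15, Pax3, Lbx1, Tbx18 and Shox2), and 1 changed. Tbx15 (1422195_s_at) rose from 222 ± 38.3 units at 0 h to 384 ± 45.9 at 24 h and 421 ± 50.1 at 48 h (SD, n = 3; limma adjusted p = 0.0272 and 0.00921). Genes of this list below the filter, chosen after their values were seen, went both ways from 0 h to 48 h without overlap. Meox2 (A, 1424234_s_at) went from 31.1 to 64.4 units to 13.3 to 26.8, and Tbx5 (A, 1425695_at) from 99.2 to 170.5 to 14.6 to 77.9. Hand2 (B, 1436041_at) went from 59.6 to 96.3 to 133.4 to 281.6, and Emx2 (B) from 49.9 to 172.4 to 185.4 to 321.3. The summed level of the limb and trunk list on the B arrays was 3009 to 3659 units at 0 h. It was 3765 to 4733 at 4 h and 3862 to 4802 at 12 h, both above 0 h without overlap, while 2712 to 4254 at 24 h and 3629 to 4922 at 48 h overlapped 0 h. Of the B sum at 0 h, Shox2 alone made up 1983 to 2348 units. On the A arrays the summed level of this list was 1074 to 1141 units at 0 h. At 4 h (1155 to 1404), 24 h (1177 to 1413) and 48 h (1189 to 1529) it lay above 0 h without overlap. At 12 h (1090 to 1773) it overlapped 0 h. Of the A sum, the Tbx15 probe set 1418755_at alone made up 406.8 to 536.2 units at 0 h. It made up 530.7 to 771.6 at 4 h, 562.2 to 796.5 at 24 h and 634.3 to 885.5 at 48 h. The higher A sum therefore cannot be read as a rise across the list. The part of limb or trunk cells in the Hoxd13 values was not tested.

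Markers of other cell types that a muscle culture can hold were also looked up. The level filter is not a detection call, and 40% of all probe sets lay below it by construction. Counts above it therefore do not show that a cell type was present. Above the filter were 4 of 8 fibroblast markers (Col3a1 changed), 2 of 8 of Schwann cells and neurons (Tubb3 changed), 1 of 5 of endothelium (none changed), 2 of 5 of macrophages (none changed), 3 of 5 of smooth muscle and pericytes (Notch3 changed) and 3 of 6 of epithelium and lacrimal gland (none changed). Col3a1 (1427883_a_at) went from 2449 ± 283 units at 0 h to 3516 ± 270 at 24 h (SD, n = 3; limma adjusted p = 0.0153). Col1a1, below the filter on the A arrays and chosen after its values were seen, had means of 6.30 ± 4.09 units at 0 h and 118 ± 73.9 at 24 h (1423669_at), and 34.6 ± 2.99 and 157 ± 53.9 (1455494_at). In a fit with no filter both passed the F-test (limma adjusted p = 4.05e-05 and 0.0148). The 3 fibroblast genes tested on the B arrays, Pdgfra, Prrx1 and Dcn, did not rise with these collagens. Their median log2 change from 0 h was 0.12 at 4 h, -0.78 at 12 h, -0.06 at 24 h and -0.16 at 48 h, and none was called. The part of these cells in the Hox values was not tested.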

How the data were processed

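Total RNA was hybridised to Affymetrix A and B arrays under a standard protocol of the maker, per the labels. Each deposited value is a linear intensity of a probe set. No source used here gives the software, the summary method or detection calls. Every array had been scaled to a fixed mean after trimming 2% at each end. The 64 control probe sets per type were left out of the tests. Names came from the platform annotation supplied, matched to the reference gene table by Entrez identifier, and all 48 members matched. Probe sets with a mean at or above the 40th percentile, 13577 (A) and 13507 (B), entered limma 3.58.1 in R 4.3.3 (lmFit on log2(intensity + 16), 1 mean per time, eBayes with an intensity trend). A pseudocount of 16 understates the changes of dim probe sets. The Benjamini-Hochberg adjustment ran within each comparison, and the procedure was tested on simulated data. The number of arrays, 3 per time, limits the precision. All members were named, with all 15 values for those called, time means for others above the filter and ranges for the rest. From each accompanying list the genes called were named, or else the pair with the smallest F-test p. The members and lists were chosen with earlier results of these data known. Alternatives were the filter, scaling, pseudocount, variance trend, array weights, times fitted, a replicate block and leaving out each array.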

Additional observations from a re-analysis of the deposited data

How the results depend on the processing

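No alternative turned the direction of the Hoxd13 difference at any of the 4 times. At 24 h it was called in 18 of 24 settings, with changes of 2.21 to 3.13 and limma adjusted p-values of 0.00112 to 0.102, and of the 15 arrays left out in turn 10 kept the call. The count of Hox probe sets called on the B arrays at 24 h went from 1 to 0 with a filter at the 60th percentile or at the highest Bacillus control mean (an alternative chosen after seeing the data), both of which remove Hoxd13 from the test, and to 0 with only the times compared in the fit. Leaving out 1 array gave counts of 0 to 1 there, and of 0 to 1 at 48 h and in the F-test on the B arrays, where 1 came without 12 h replicate 2. All other counts of calls stayed at 0. The number of A members above the filter was 3, and 0 at the 60th percentile, 10 at the control level and 37 with no filter. That of the B members was 8, and 2 and 5 under the first and second of these. The labels do not say if the replicate numbers pair the samples, and a check on the deviations from the time means could not exclude it. Same-numbered arrays correlated above 0.1 in 10 of 30 pairs on the A and 1 of 30 on the B arrays. On the A and B arrays, 7 and 3 of 15 correlated best with their own number. The mean correlation was 0.005 (A) and -0.004 (B) for same-numbered pairs, beside -0.002 and 0.002 for the others. With the replicate block the Hoxd13 change at 24 h was 2.87 ± 0.56 (limma adjusted p = 0.0311), and the block changed no call. The fits of Pbx3 and Kdm6b without B 0 h replicate 1, those of Crabp1, Crabp2 and Col1a1 with no filter and the Hoxd13 bound were also chosen after seeing the data. Signal over background limits most members, since 27 of 37 A and 6 of 11 B means lay below the highest control mean.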
